A study of Mus musculus with 9 samples.

Results

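The thioredoxin and peroxiredoxin genes of B.END3 cells were described across 9 RNA sequencing libraries. Members were the rows of the joint expression table named Txn1, Txn2, Txnrd1, Txnrd2, Prdx1, Prdx2, Prdx3, Prdx5, Prdx6 or Srxn1, which gave 10 genes of the 54532 listed. Levels are given in FPKM, fragments mapped to a gene relative to its length and to the total of the library, and all 10 were among the 11727 genes tested, those that reached 1 FPKM in 3 or more libraries. No member needed a high value in 1 group to pass this filter, since each exceeded 1 FPKM in all 9 libraries.

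Thioredoxins are small proteins that reduce disulfides in other proteins through a pair of cysteines, and thioredoxin reductases return them to the reduced state with electrons from NADPH. Peroxiredoxins are abundant peroxidases in which a cysteine is oxidised by hydrogen peroxide or by lipid and other organic peroxides, and most of them are reduced again by thioredoxin. When the cysteine of a typical 2-Cys peroxiredoxin is oxidised further to a sulfinic acid, sulfiredoxin (Srxn1) repairs it. Photodynamic therapy (PDT) uses a light-activated drug that produces singlet oxygen and other reactive oxygen species, and several genes of this system are known targets of NRF2, the transcription factor of the antioxidant response that KEAP1 holds in check.

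B.END3 is an established mouse line described as brain microvessel endothelial cells, with the strain given as C57BL/6. The study's methods call the cells rat, while its introduction calls them mouse. Control cells (Ctrl) were labelled untreated. Both treated groups were incubated as monolayers with 300 µg/mL of the photosensitizer porfimer sodium for 90 min and exposed to a 635 nm laser at 100 mW/cm2, at a light dose of 10 J/cm2 in Ep1 and 20 J/cm2 in Ep2. Each group had 3 libraries. Cells given only drug or only light were not analysed here, so the effect of light cannot be told apart from that of the drug in a comparison with Ctrl, and the interval between irradiation and lysis is not given in the sources used here. No source says that the 3 libraries of a group came from separate cultures, so p-values measure only the spread between these libraries, which may be technical. Fewer cells of a type and less RNA per cell cannot be told apart in such bulk samples.

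Between 16240688 and 19509225 fragments per library fell on listed genes. Pairs of libraries within a group differed beyond what counting allows (chi-square divided by its degrees of freedom, 2.81 to 15.25), most of all Ep2 replicate 1 against the other Ep2 libraries (10.06 and 15.25). The labelled cell type was checked against its markers. Of 10 endothelial markers, 8 lay below 1 FPKM in all libraries (Pecam1, Kdr, Tek, Tie1, Cldn5, Vwf, Esam and Emcn, the last listed at 0 throughout), and the summed level of the list was 2.39 to 2.79 FPKM. The 5 epithelial markers summed to 1029 to 1081 FPKM in Ctrl, 937 to 1041 in Ep1 and 1155 to 1372 in Ep2, with Cdh1 below 1 FPKM in every library. The transcripts therefore go against the endothelial label, and the cells are called by the name of the line. In Ep2, Krt18 and Krt19 rose by 0.37 and 0.70 on the log2 scale, while Krt8, the highest of the list, differed by 0.04. Epcam rose by 0.61, from a mean of 0.812 FPKM in Ctrl to 1.77 in Ep2, and passed the filter of tested genes only with its Ep2 libraries. The epithelial sum lay above Ctrl in every Ep2 library, and its part in the differences described for Ep2 was not tested. Lists for pericytes, astrocytes, macrophages, neurons and erythroid cells summed to at most 2.6 FPKM in any library.

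The working parts of these proteins can be read in short stretches of their coding sequences, taken from the canonical GENCODE M39 transcripts and numbered from the A of the start codon. The thioredoxins are shown first because their active sites define the family, with the 4 codons of the Cys-Gly-Pro-Cys site in capitals, at coding bases 85 to 114 of Txn1 and 259 to 288 of Txn2.
Txn1: gctacgtggTGTGGACCTTGCaaaatgatc
Txn2: gcacagtggTGTGGCCCCTGCaagatccta
The ends of the reductase genes, coding bases 1474 to 1500 of Txnrd1 and 1558 to 1584 of Txnrd2, show in capitals the in-frame TGA that is read as selenocysteine ahead of the stop codon.
Txnrd1: atcctccagtctggctgcTGAggttaa
Txnrd2: cctactgtgactggttgcTGAggctaa
In the 3 typical 2-Cys peroxiredoxins among the members, capitals mark the codon of the peroxide-reacting cysteine, in coding bases 142 to 171 of Prdx1, 139 to 168 of Prdx2 and 313 to 342 of Prdx3.
Prdx1: tttacttttgtgTGTcccacggagatcatt
Prdx2: ttcacttttgttTGCcccacggagatcatc
Prdx3: ttcacatttgtgTGTcctacagaaattgtt

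Most members were abundant transcripts in untreated cells. By FPKM, a level per gene length, Txn1 stood highest in Ctrl, above 99.3% of the tested genes, followed by Prdx1 above 98.4%, Prdx2 above 95.2% and Prdx3 above 93.3%. Srxn1, Txnrd1, Prdx5, Prdx6 and Txn2 followed in that order, and no neighbouring genes of this order overlapped in their Ctrl libraries. Txnrd2, the mitochondrial reductase, was the exception at the low end, above 38.2% of the tested genes. In Ep1 the libraries of Srxn1 overlapped those of Prdx2, and those of Prdx3 overlapped Txnrd1. In Ep2 the libraries of Prdx5 overlapped both Txnrd1 and Prdx2, while Txn1 and Prdx1 remained the highest and Txn2 and Txnrd2 the lowest in every group. Srxn1 stood next to Prdx1 in Ep2, ahead of Prdx2 and Prdx3.

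The question of the comparison of Ep2 with Ctrl was how PDT at 20 J/cm2 altered transcript levels. Here 4 members rose, namely Srxn1, Txnrd1, Prdx1 and Prdx5, and 6 fell, namely Txn1, Txn2, Txnrd2, Prdx2, Prdx3 and Prdx6. Differences were tested with limma on log2(FPKM + 1) in 1 model of all 9 libraries and are given on this scale. It understates the change of low genes, such as Epcam, at 0.61 for an Ep2 mean of 2.18 times that of Ctrl. A gene was called at a Benjamini-Hochberg adjusted p-value below 0.05, and all 10 members were called, against 53.2% of the tested genes. Of all tested genes 23.9% were called higher and 29.3% lower, a majority that turned with median centring (3311 genes higher and 2971 lower). The Ep2 and Ctrl libraries did not overlap for any member, which held for 59.7% of tested genes, 27.0% with Ep2 above and 32.7% with Ep2 below. Only Srxn1, Txn2 and Prdx3 were differentially expressed genes (DEGs), which also required an absolute log2 fold change above 0.6, against 9.17% of the tested genes. This call was lost for Txn2 with the gene length and GC correction (-0.58) and for Prdx3 with median centring (-0.58). The median log2 fold change of the members was -0.29, beside -0.03 over all tested genes.

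**Figure D1:**
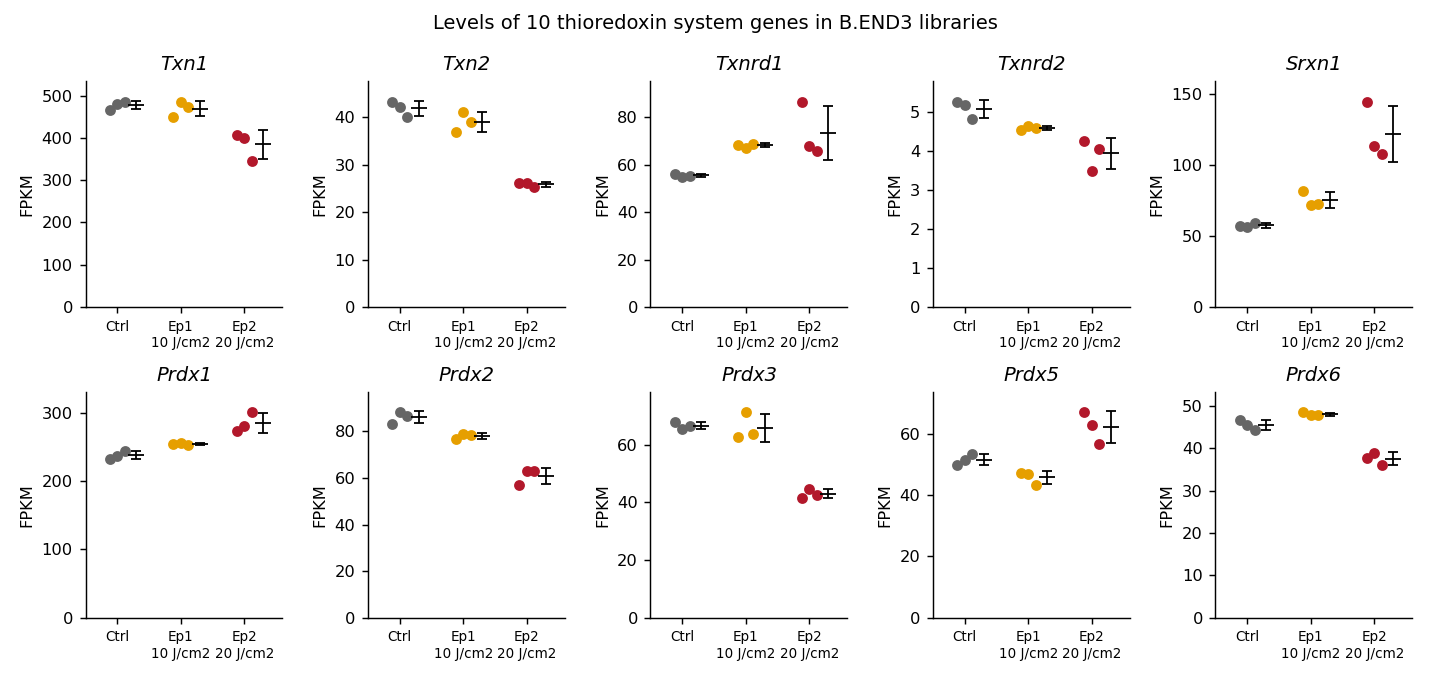
Level of each of the 10 genes in FPKM (vertical axes, from 0, scaled separately for each gene) in the 9 libraries, by group. Points are libraries, and the horizontal line with bars is the mean ± SD of 3 libraries. Ep2 lies wholly above Ctrl for Srxn1, Txnrd1, Prdx1 and Prdx5 and wholly below it for the other 6 genes.

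After 10 J/cm2 the differences were smaller. Compared to Ctrl, 1 member was called in Ep1, Srxn1, which rose, against 11.3% of the tested genes called, 6.32% higher and 4.97% lower. No member was a DEG in Ep1 by limma, although 4 had an unadjusted p below 0.05, and 0.793% of the tested genes were DEGs. The median over the members was -0.02, beside -0.01 over all tested genes. In all, 7 members had Ep1 libraries that did not overlap Ctrl, 4 above and 3 below, against 41.3% of tested genes, 20.8% above and 20.5% below. In the comparison of Ep2 with Ep1, 9 members were called, 3 higher and 6 lower, against 44.0% of the tested genes, 18.8% higher and 25.2% lower. The libraries of these 9 genes did not overlap, as for 54.4% of tested genes, 24.1% above and 30.3% below. DEGs in that comparison were Srxn1 and Prdx3, against 5.9% of tested genes. Prdx3 was near that limit and fell short of it with median centring (-0.55), with the gene length and GC correction and in the voom fit (-0.58 in both), without Ep1 replicate 2 (-0.55) and without Ep2 replicate 1 (-0.58), while Srxn1 did so without Ep2 replicate 1 (0.55). The 3 comparisons share their libraries pairwise, so their counts are not independent.

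**Figure D2:**
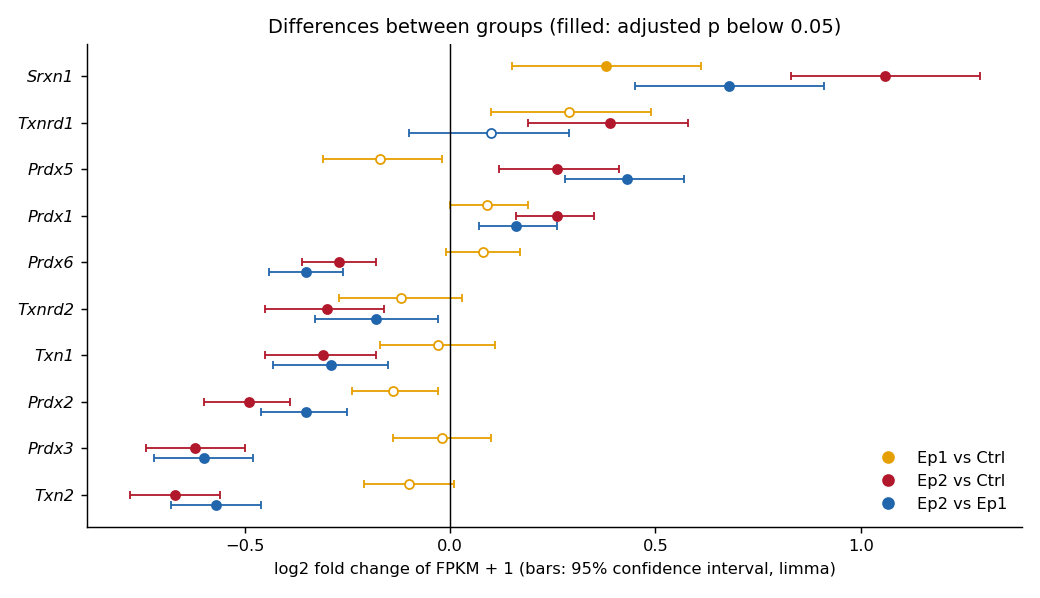
Difference of each gene in log2(FPKM + 1) (horizontal axis) for Ep1 vs Ctrl, Ep2 vs Ctrl and Ep2 vs Ep1, with 95% confidence intervals from limma, and filled points at an adjusted p below 0.05. In Ep1 vs Ctrl only Srxn1 is filled, whereas all 10 genes are filled in Ep2 vs Ctrl, from -0.67 for Txn2 to 1.06 for Srxn1.

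Sulfiredoxin, which returns overoxidised peroxiredoxins to the active form, gave the widest change of the members. Srxn1 (ENSMUSG00000032802, chromosome 2, 152105516 to 152111376, plus strand, GRCm38, as for all positions here) was at 57.1, 56.3 and 59.4 FPKM in the Ctrl libraries, at 81.7, 72.1 and 72.4 FPKM in Ep1, and at 145, 114 and 108 FPKM in Ep2. The 3 groups did not overlap and lay in the order Ctrl, Ep1, Ep2 from lowest to highest, with Ep2 replicate 1 the highest library. Compared to Ctrl, Srxn1 rose by 0.38 ± 0.10 (log2, SE) in Ep1, with an adjusted p of 0.0436, and by 1.06 ± 0.10 in Ep2, 2.12 times the mean Ctrl level, with an adjusted p of 4.14e-05. Of the 11727 tested genes it had the rank 46 from the highest change in Ep2 on the log2(FPKM + 1) scale. That scale places genes of low level further down than their fold change would. Ep2 also exceeded Ep1, by 0.68 ± 0.10 (adjusted p = 0.000698), and without Ep2 replicate 1 the change from Ctrl was 0.93. The call in Ep1 was weak: it was lost when any 1 of the 6 Ctrl and Ep1 libraries was left out (adjusted p between 0.071 and 0.142), without the filter on low values (0.123) and in a voom fit of fragment counts (0.0586).

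The reductases of the cytosol and the mitochondria went in opposite directions. Txnrd1 (ENSMUSG00000020250, chromosome 10, 82833951 to 82897712, plus strand), the cytosolic enzyme that reduces Txn1, was at 56.1, 54.8 and 55.3 FPKM in Ctrl, 68.3, 67.1 and 68.7 in Ep1, and 86.5, 67.7 and 65.9 in Ep2. Treated libraries all lay above the control libraries, while Ep1 and Ep2 overlapped and Ep2 replicate 1 stood apart from the other 2. The rise in Ep2 was 0.39 ± 0.087 (adjusted p = 0.00437), or 32.4% in mean FPKM, and 0.27 without Ep2 replicate 1. In Ep1 the difference of 0.29 ± 0.087 had an adjusted p of 0.0598, with a 95% confidence interval from 0.10 to 0.49, and it passed the threshold when only Ctrl and Ep1 were fitted (0.00373) and under a stricter filter on low values (0.0399). The difference between Ep2 and Ep1, 0.10 with an interval from -0.10 to 0.29 (adjusted p = 0.391), was -0.03 without Ep2 replicate 1. Eid3, listed on the same strand, shares 1305 bases with Txnrd1 and stood at 0.536 to 1.73 FPKM.

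Txnrd2 (ENSMUSG00000075704, chromosome 16, 18426384 to 18479073, plus strand), the mitochondrial reductase, was measured at 5.26, 5.16 and 4.82 FPKM in Ctrl, 4.52, 4.63 and 4.59 in Ep1, and 4.26, 3.49 and 4.05 in Ep2. Each group lay wholly below the previous one, on 287 to 446 fragments per library. It fell by 0.30 ± 0.066 in Ep2 (log2, SE; adjusted p = 0.00364), and the mean FPKM fell by 22.6%. The change was -0.19 once gene length and GC content were corrected for. In Ep1 the difference was -0.12 with an interval from -0.27 to 0.03 (adjusted p = 0.247). The difference of -0.18 between Ep2 and Ep1 was at the threshold (adjusted p = 0.0488) and passed it in 1 of 8 other fits that kept all libraries and in 1 of 6 that left out a library, with adjusted p between 0.0191 and 0.152. Without Ep2 replicate 2 it was -0.12.

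Both thioredoxins fell at 20 J/cm2, the mitochondrial one by more. Txn1 (ENSMUSG00000028367, chromosome 4, 57943373 to 57956411, minus strand), the cytosolic and nuclear thioredoxin, was at 467, 481 and 485 FPKM in Ctrl, 450, 486 and 472 in Ep1, and 407, 401 and 346 in Ep2. Ctrl and Ep1 overlapped, and every Ep2 library was lower than either. Compared to Ctrl, Txn1 fell by 0.31 ± 0.062 in Ep2 (log2, SE; adjusted p = 0.00212), and the mean FPKM fell by 19.4%. Corrected for gene length and GC content, the change was -0.17. Its difference in Ep1 was -0.03 with an interval from -0.17 to 0.11 (adjusted p = 0.817), and Ep2 was lower than Ep1 by a log2 difference of -0.29 (adjusted p = 0.0046). A pseudogene of it, Txn-ps1, had at most 0.193 FPKM.

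Txn2 (ENSMUSG00000005354, chromosome 15, 77915047 to 77929006, minus strand), the mitochondrial thioredoxin that serves Prdx3, was at 43.3, 42.2 and 40.1 FPKM in Ctrl, 36.8, 41.0 and 39.1 in Ep1, and 26.2, 26.2 and 25.3 in Ep2. The Ep2 libraries were tightly grouped below all others, while Ctrl and Ep1 overlapped. The fall in Ep2 was -0.67 ± 0.049 (log2, SE; adjusted p = 9.68e-06), and the mean fell by 38.1%, from 41.9 ± 1.62 to 25.9 ± 0.501 FPKM (SD, n = 3). Compared to Ep1 it was -0.57 (adjusted p = 3.36e-05), and Ep1 differed from Ctrl by -0.10, with an interval from -0.21 to 0.01 (adjusted p = 0.196), or -0.06 with the gene length and GC correction or without Ep1 replicate 1.

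The typical 2-Cys peroxiredoxins, whose cysteine codons are shown above, did not move together. Prdx1 (ENSMUSG00000028691, chromosome 4, 116685544 to 116700822, plus strand), the most abundant cytosolic peroxiredoxin here, was at 233, 237 and 245 FPKM in Ctrl, 254, 256 and 253 in Ep1, and 274, 281 and 301 in Ep2. The groups did not overlap and lay in the order Ctrl, Ep1, Ep2 from lowest to highest. Prdx1 rose by 0.26 ± 0.043 in Ep2 (log2, SE; adjusted p = 0.000816), or 19.7%, and by 0.16 from Ep1 to Ep2 (adjusted p = 0.0119). The Ep1 difference of 0.09, or 6.68%, did not pass (adjusted p = 0.182) and was 0.02 with the gene length and GC correction.

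Prdx2 (ENSMUSG00000005161, chromosome 8, 84969587 to 84974834, plus strand), the second cytosolic member of this type, showed the opposite order, with 83.2, 88.2 and 86.6 FPKM in Ctrl, 76.8, 79.0 and 78.3 in Ep1, and 57.1, 62.8 and 63.0 in Ep2. These groups did not overlap either. It fell by 0.49 in Ep2 (adjusted p = 3.39e-05), while its mean FPKM fell by 29.1%, and the difference between Ep2 and Ep1 was -0.35 (adjusted p = 0.000329). In Ep1 the difference was -0.14 ± 0.046 (adjusted p = 0.0831), and it passed the threshold when only Ctrl and Ep1 were fitted (0.0309) and in the voom fit (0.0345). Prdx2 shares 351 bases with Junb and 181 bases with Rnaseh2a, both on the opposite strand, and these differed from Ctrl in Ep2 by 0.26 and -0.73 on the log2 scale. Whether the counting used strand is not given in the sources used here, and their part in the Prdx2 value was not tested. A related sequence, Prdx2-rs3, was listed at 0.

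Prdx3 (ENSMUSG00000024997, chromosome 19, 60864051 to 60874556, minus strand), the mitochondrial 2-Cys peroxiredoxin, was at 68.0, 65.4 and 66.4 FPKM in Ctrl, 62.6, 71.2 and 63.5 in Ep1, and 41.6, 44.6 and 42.5 in Ep2. Ctrl and Ep1 overlapped, and the Ep2 libraries lay far below both. Compared to Ctrl it fell by 0.62 in Ep2 (adjusted p = 2.06e-05), the mean FPKM fell by 35.6%, and the difference from Ep1 was -0.60 (adjusted p = 3.88e-05). In Ep1 it was -0.02, with an interval from -0.14 to 0.10 (adjusted p = 0.844).

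The remaining peroxiredoxins use other mechanisms. Prdx5 (ENSMUSG00000024953, chromosome 19, 6906697 to 6910106, minus strand), an atypical 2-Cys enzyme found in mitochondria, peroxisomes and cytosol, was at 49.7, 51.5 and 53.4 FPKM in Ctrl, 47.3, 46.9 and 43.4 in Ep1, and 67.0, 63.0 and 56.5 in Ep2. All Ep1 libraries lay below Ctrl and all Ep2 libraries above it. The difference from Ctrl in Ep1 was -0.17 ± 0.064 (adjusted p = 0.123), and it passed when only these groups were fitted (0.0429), whereas with the gene length and GC correction it was -0.06. In Ep2 the rise was 0.26 (adjusted p = 0.00687), or 20.6%, and 0.46 with the gene length and GC correction, and Ep2 exceeded Ep1 by 0.43 ± 0.064 (adjusted p = 0.000662). Trmt112, which shares 409 bases with Prdx5 on the opposite strand, stood at 33.2 to 36.0 FPKM in all libraries.

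Prdx6 (ENSMUSG00000026701, chromosome 1, 161240112 to 161251219, minus strand), the 1-Cys peroxiredoxin, which also acts on oxidised phospholipids and is reduced through glutathione rather than thioredoxin, was at 46.6, 45.4 and 44.4 FPKM in Ctrl, 48.5, 47.8 and 47.8 in Ep1, and 37.8, 38.9 and 36.0 in Ep2. Its order was the reverse of that of Prdx5, with Ep1 above Ctrl and Ep2 below. The Ep1 difference was 0.08 with an interval from -0.01 to 0.17 (adjusted p = 0.238). In Ep2, Prdx6 fell by 0.27 (adjusted p = 0.000435), its mean FPKM fell by 17.5%, and the difference from Ep1 was -0.35 (adjusted p = 0.00016). Both copies by name, Prdx6b and Prdx6-ps2, were listed at 0.

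Summed over the 5 peroxiredoxin members, the groups overlapped, with means of 488 ± 7.81 (Ctrl), 492 ± 7.66 (Ep1) and 489 ± 11 FPKM (Ep2; SD, n = 3), while the makeup of the sum differed. Prdx1 held 48.8 ± 0.524% of the sum in Ctrl, 51.7 ± 0.517% in Ep1 and 58.3 ± 1.75% in Ep2. The share of Prdx2 was 17.6%, 15.9% and 12.5% in the same order, and that of Prdx3 was 13.7%, 13.4% and 8.77%. Prdx5 held 10.6%, 9.32% and 12.7%, and Prdx6 9.33%, 9.77% and 7.69%. Prdx1 had 2.77 times the level of Prdx2 in Ctrl, 3.26 times in Ep1 and 4.68 times in Ep2.

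**Figure D3:**
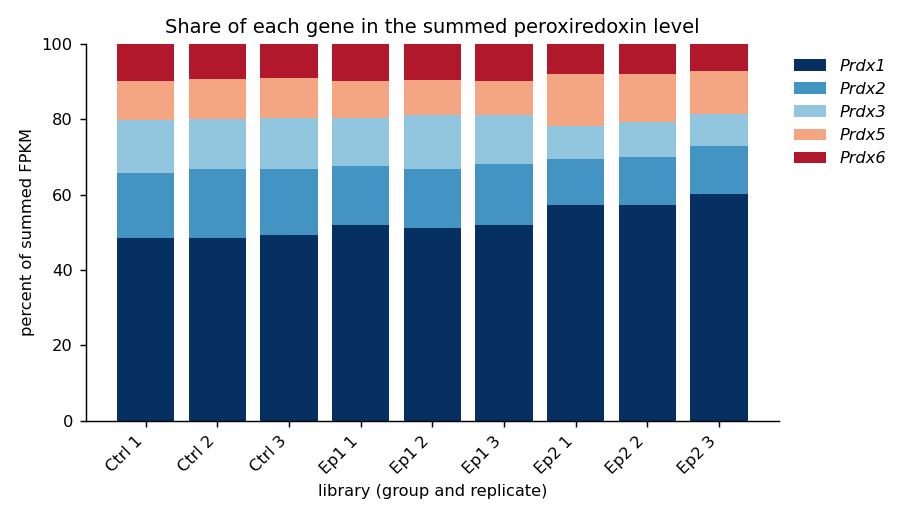
Share of each peroxiredoxin gene in the summed FPKM of Prdx1, Prdx2, Prdx3, Prdx5 and Prdx6 (vertical axis, percent) in each of the 9 libraries (1 bar each). The Prdx1 share lies between 48.4 and 49.4% in Ctrl and between 57.3 and 60.3% in Ep2, and those of Prdx2 and Prdx3 are lower in Ep2.

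By compartment, the genes of the mitochondrial chain from reductase to peroxidase (Txnrd2, Txn2 and Prdx3) summed to 114 ± 2.73 FPKM in Ctrl, 109 ± 6.73 FPKM in Ep1 and 72.7 ± 1.38 FPKM in Ep2 (SD, n = 3). Each of the 3 fell in Ep2. Prdx5, found in mitochondria, peroxisomes and cytosol, is in neither this sum nor the next, and it rose by 0.26 in Ep2. The 6 mainly cytosolic members (Txn1, Txnrd1, Prdx1, Prdx2, Prdx6 and Srxn1) summed to 960 ± 16.9, 993 ± 14.3 and 964 ± 43.5 FPKM, with 3 higher and 3 lower in Ep2. The ratio of Txnrd1 to Txn1 was 0.116 in Ctrl, 0.145 in Ep1 and 0.191 in Ep2, and that of Srxn1 to Prdx1 was 0.242 ± 0.00407, 0.297 ± 0.0219 and 0.431 ± 0.0882. These sums and ratios are descriptions, without a test.

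Further genes of the system, 23 in all and all tested, include other thioredoxin-like proteins, glutaredoxins, methionine sulfoxide reductases, sestrins and the subunits of ribonucleotide reductase, an enzyme that thioredoxin supplies with electrons. In Ep2 compared to Ctrl, 3 rose and 9 fell, so that 12 of 23 were called, against 53.2% of the tested genes. Their median change was -0.05 (log2), beside -0.03 over all tested genes. Rrm2, the radical-bearing subunit of ribonucleotide reductase used in S phase, was at 144, 137 and 140 FPKM in Ctrl, 146, 155 and 155 in Ep1, and 63.2, 72.8 and 74.0 in Ep2. Compared to Ctrl it fell by 1.0 (adjusted p = 4.13e-06). The large subunit Rrm1 fell by 0.78 (adjusted p = 2.19e-06) and Glrx5, a mitochondrial glutaredoxin of iron-sulfur cluster assembly, by 0.59 (adjusted p = 3.75e-05). Among the genes that rose were Msrb3, a methionine sulfoxide reductase, by 1.12 (adjusted p = 3.51e-05), the p53-inducible subunit Rrm2b by 0.25 (adjusted p = 0.0121), and Txndc9 by 0.24 (adjusted p = 0.00083).

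In Ep1 compared to Ctrl, 1 of the 23 was called, against 11.3% of the tested genes, and the median was 0.02. It was the selenoprotein Msrb1, which fell by 0.22 (adjusted p = 0.0409). In Ep2 compared to Ep1, 3 rose and 10 fell, against 18.8% of tested genes called higher and 25.2% lower, with a median of -0.12, and the split was 5 and 7 both with median centring and in the voom fit. Rrm1 (-0.83), Rrm2 (-1.11) and Glrx5 (-0.59) led the genes that fell, while Msrb3 (0.98), Msrb1 (0.24) and Glrx (0.17) rose. Txnip, the inhibitor that binds reduced thioredoxin, was at 21.4, 22.9 and 21.1 FPKM in Ctrl, 19.7, 19.3 and 20.8 in Ep1, and 16.1, 23.5 and 21.5 in Ep2. Its groups overlapped in Ep2, and the differences from Ctrl were -0.12 in Ep1 (adjusted p = 0.517) and -0.11 in Ep2 (adjusted p = 0.446). Prdx4, the peroxiredoxin of the endoplasmic reticulum, differed from Ctrl by -0.07 in Ep1 (adjusted p = 0.267) and by 0.03 in Ep2 (adjusted p = 0.504), and its libraries spanned 39.1 to 43.9 FPKM.

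A list of 16 genes with NRF2, KEAP1 and known NRF2 targets, none of them a member, was set beside the members. In Ep1 compared to Ctrl, 8 of 16 were called, all of them higher, against 11.3% of the tested genes called and 6.32% called higher, with a median of 0.22. Omission of 1 library left 4 calls (without Ctrl replicate 2 or Ep1 replicate 3), 5 (without replicate 1 of either group) or more. In Ep2, 9 rose and 3 fell, against 23.9% and 29.3% of the tested genes, with a median of 0.42. Slc7a11, the cystine importer, had 5.42, 5.08 and 5.76 FPKM in Ctrl, 12.6, 10.4 and 11.5 in Ep1, and 16.0, 15.9 and 17.2 in Ep2. It rose by 0.96 in Ep1 (adjusted p = 0.00121) and by 1.44 in Ep2 (adjusted p = 2.17e-06). The subunits of the enzyme that starts glutathione synthesis rose as well, Gclc by 0.38 (adjusted p = 0.00521) and Gclm by 0.62 (adjusted p = 0.0054) in Ep1, and Gclc by 0.69 in Ep2 (adjusted p = 5.73e-06). Me1, malic enzyme, an NADPH source, rose by 0.85 in Ep2 (adjusted p = 1.44e-05).

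The 3 genes of that list that fell in Ep2 were G6pdx (-0.46, adjusted p = 0.000101), the NADPH-forming entry enzyme of the pentose phosphate pathway, Nqo1 (-0.19, adjusted p = 0.00179), a quinone reductase, and Tkt (-0.13, adjusted p = 0.0326), transketolase. Tkt was the weakest of these calls. Only 2 genes were called lower without the filter, with median centring, with the gene length and GC correction and with only the compared groups. From Ep1 to Ep2, 6 rose and 3 fell, against 18.8% and 25.2% of the tested genes, with a median of 0.13. Me1 (0.59), Slc7a11 (0.48) and Gclc (0.31) rose, and G6pdx (-0.46), Nqo1 (-0.24) and Tkt (-0.16) fell. Nfe2l2, which encodes NRF2, was at 49.7, 49.3 and 47.5 FPKM in Ctrl, 57.5, 53.1 and 56.1 in Ep1, and 50.4, 59.0 and 66.7 in Ep2. Every treated library lay above Ctrl, and the difference was called in Ep2 (0.25, adjusted p = 0.0319) but not in Ep1 (0.18, adjusted p = 0.19). The Ep2 call was weak, with the largest adjusted p of the 9 genes of the list called higher. That number was 8 without the filter, with a replicate block and with only the compared groups. It was also 8 without Ep2 replicate 2 or any 1 Ctrl library. Keap1 differed from Ctrl by -0.09 in Ep1 (adjusted p = 0.312) and by 0.08 in Ep2 (adjusted p = 0.252).

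**Figure D4:**
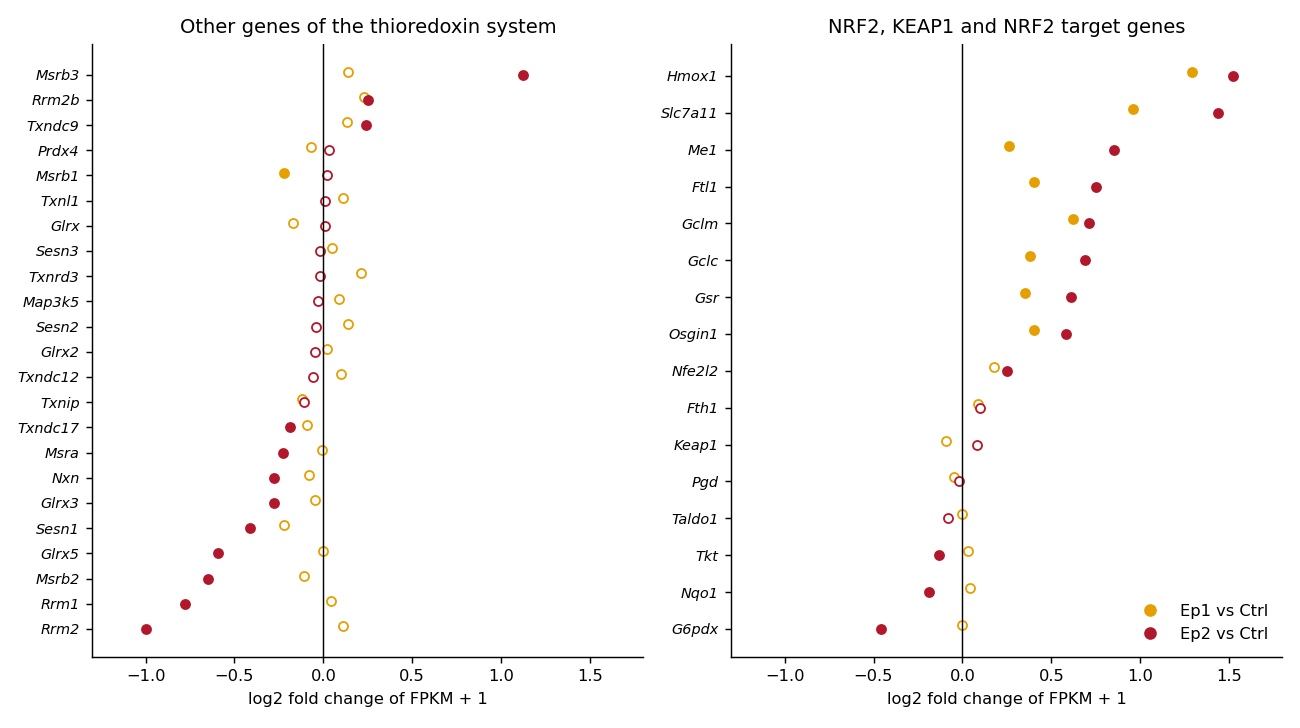
Differences from Ctrl in log2(FPKM + 1) (horizontal axes) of 23 other genes of the thioredoxin system (left) and 16 genes of the NRF2 list (right), in Ep1 and Ep2, with filled points at an adjusted p below 0.05 in limma. In the left panel 1 gene is filled for Ep1 and 12 for Ep2, and in the right panel 8 and 12.

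The genes with the pattern nearest to a member were found by the root mean square difference of log2(FPKM + 1) over the 9 libraries, each gene centred on its mean. For Srxn1, whose own root mean square around its mean was 0.45, these were Gpat3 (0.050), Zc3h6 (0.090) and F2rl1 (0.11), against a median distance of 0.49 over all tested genes. Nearest to Txnrd1 were Morf4l1 (0.045), Wwc2 (0.058) and Gadd45a (0.062), to Txn1 Rplp1 (0.029), Rps9 (0.033) and Idh3b (0.039), and to Prdx1 B2m (0.026), Alg10b (0.028) and Msn (0.028). Gpat3 and F2rl1 were at 4.09 ± 0.364 and 11.8 ± 0.807 FPKM in Ctrl and at 9.31 ± 1.83 and 24.8 ± 3.37 in Ep2 (SD, n = 3). Zc3h6 was a low gene, with an Ep2 mean of 1.52 ± 0.288 FPKM. Its Ctrl and Ep1 means were 0.295 ± 0.011 and 0.72 ± 0.161, so only Ep2 brought it into the tested set. Because log2(FPKM + 1) understates changes at such levels, its nearness to Srxn1 does not mean an equal fold change. These distances describe 9 shared libraries and have no test.

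Promoter windows of 300 bases, from 250 bases before to 50 bases after an annotated start (RefSeq, GRCm38.p6), were matched by symbol for 9 members, with 11 windows because Txnrd1 has 3, and not for Prdx6. They were searched on both strands for TGACNNNGC, the core of the antioxidant response element bound by NRF2, and for TGACTCA, the AP-1 motif, which can overlap it. TGACNNNGC was found in 3 of the 11 windows, those of Srxn1, Prdx1 and the second start of Txnrd1, and in 12.4% of all 32851 windows. TGACTCA was found in the windows of Srxn1 and Prdx1, with 2 matches in each, and in 5.2% of all windows. Srxn1, Prdx1 and Txnrd1 rose at 20 J/cm2, and so did Prdx5, whose window held neither motif. The other windows of Txnrd1 held neither motif, and which start was in use was not examined. Whether the motifs bear on the changes was not tested. No match in the other windows says only that these letters are absent there, and a match is not evidence of a bound site.

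The 250 bases before these starts are printed because the windows hold the matches, 5′ to 3′ on the plus strand, with matches in capitals. In Srxn1 (chr2:152105274-152105523) the capitals are TGACTCA on the minus strand, 102 and 45 bases before the start, and its TGACNNNGC match lies after the start, at base 29, within chr2:152105546-152105567. In Prdx1 (chr4:116685349-116685598) a plus-strand TGACTCA begins 237 bases before the start, and the second block, 133 bases before it, is a minus-strand TGACNNNGC that contains a TGACTCA. In Txnrd1 (chr10:82858956-82859205) the capitals are a minus-strand TGACNNNGC, 92 bases before the start.
Srxn1: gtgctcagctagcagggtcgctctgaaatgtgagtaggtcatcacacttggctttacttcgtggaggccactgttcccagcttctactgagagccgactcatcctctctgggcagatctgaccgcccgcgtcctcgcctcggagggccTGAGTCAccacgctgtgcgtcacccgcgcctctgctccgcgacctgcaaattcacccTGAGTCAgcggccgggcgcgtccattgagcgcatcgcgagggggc
Srxn1, after the start: tgggcaGCTAGGTCAgagtgag
Prdx1: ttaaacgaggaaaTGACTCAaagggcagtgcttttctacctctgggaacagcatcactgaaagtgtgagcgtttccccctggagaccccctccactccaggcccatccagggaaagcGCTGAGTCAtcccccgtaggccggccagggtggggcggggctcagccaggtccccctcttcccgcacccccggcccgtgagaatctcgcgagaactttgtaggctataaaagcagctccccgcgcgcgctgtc
Txnrd1: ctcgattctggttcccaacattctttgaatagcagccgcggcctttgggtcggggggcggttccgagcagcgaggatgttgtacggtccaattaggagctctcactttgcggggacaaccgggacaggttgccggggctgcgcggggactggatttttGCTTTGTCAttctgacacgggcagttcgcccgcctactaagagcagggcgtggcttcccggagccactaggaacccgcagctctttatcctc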

How the data were processed

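The authors deposited 1 FPKM value per gene and library, in a joint table whose values equal those of the 9 single-library tables. Submitters' processing notes name Bowtie 0.12.2 and mm8, and the study's methods name GRCm39, but listed coordinates overlap GRCm38 positions for 99.9% of 37624 genes compared (GRCm39, 10.9% of 50453). The tool that counted the reads is not given in the sources used here. FPKM multiplied by gene length gave whole fragments within 0.05 for every library, with a limit of 3 fragments where none was seen.

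Values of log2(FPKM + 1) of 11727 genes (1 FPKM or more in 3 or more libraries) were fitted with limma 3.58.1 in R 4.3.3 (eBayes, trend and robust options on, no covariates), with adjustment over all tested genes in each comparison. The fit was tested on simulated data. Alternatives were a pseudocount of 0.1, no filter, a filter of 5 FPKM, median centring, a correction for gene length and GC content, a replicate block, only the groups compared, voom on fragments, and each library left out. The members, the lists and the tests were chosen with earlier results of these data known. Named in the text were all members, the 3 genes of each list with the smallest adjusted p in each direction of a comparison, Txnip, Prdx4, Nfe2l2 and Keap1, the 3 nearest patterns of 4 members, and copies by name. Some items are not reported here.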

Additional observations from a re-analysis of the deposited data

Results flagged for a closer look

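Prdx5 and Prdx6 stood on opposite sides of Ctrl at the 2 light doses. For Prdx5 every Ep1 library was below and every Ep2 library above the Ctrl libraries, and Ep2 differed from Ep1 by 0.43 on the log2 scale (limma, adjusted p = 0.000662). For Prdx6 every Ep1 library was above and every Ep2 library below Ctrl, and Ep2 differed from Ep1 by -0.35 (limma, adjusted p = 0.00016). The Ep1 differences from Ctrl, -0.17 for Prdx5 and 0.08 for Prdx6, did not pass the threshold themselves. For Prdx5 that difference was -0.06 with the gene length and GC correction. Both genes were flagged by this very pattern, so the values given here are not a test of it. The share of all tested genes with the pattern was not counted. Ep1 libraries did not overlap Ctrl for 41.3% of tested genes, and Ep2 libraries did not for 59.7%.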

How the results depend on the processing

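Of 267 log2 fold changes of members under alternatives that kept all libraries, 251 kept their direction and side of the adjusted p threshold, as did 165 of 180 under the omission of 1 library. In Ep1 compared to Ctrl, where limma called 1 member, it called 0 without the filter (4 at an unadjusted p below 0.05), 2 under the stricter filter, 4 when only the compared groups were fitted and 0 to 0 without 1 library (2 to 5 unadjusted); voom called 1, which was Prdx2 and not Srxn1. The 23 other genes of the system, with 1 called, gave 0 without the filter (9 unadjusted), 2 under the stricter filter, 3 with only the compared groups, 2 with voom and 0 to 0 without 1 library (6 unadjusted). The NRF2 list gave 5 calls in place of 8 without the filter, and 4 to 8 without 1 library. No total of calls in a comparison with Ep2 moved by over 1.5 times. Signs turned, in differences that were never called, for Txn1 in Ep1 (0.04 with the length and GC correction, also with the block, and -0.05 to 0.00 without 1 library, highest without Ep1 replicate 1), Prdx3 in Ep1 (-0.08 to 0.01 without 1 library, 0.01 without Ep1 replicate 1 and 0.00 without Ep1 replicate 3) and Txnrd1 from Ep1 to Ep2 (-0.03 to 0.17, lowest without Ep2 replicate 1). The cause was not tested.

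Samples with the same replicate number did not deviate together (correlations of -0.056 to 0.074 over 9 pairs), and pairs with different numbers gave -0.108 to 0.153. What the numbers stand for is not given in the sources used here, and these correlations cannot show it. With the replicate block, 1, 10 and 8 members were called in Ep1 vs Ctrl, Ep2 vs Ctrl and Ep2 vs Ep1. Median centring moved the split of all calls from Ep1 to Ep2 from 2206 higher and 2950 lower to 2974 and 2383, and members from 3 and 6 to 3 and 5. For Ep2 compared to Ctrl it moved all calls from 2800 higher and 3436 lower to 3311 and 2971. The voom fit gave 3565 and 3484 there, and the members stayed at 4 and 6 in both. Txnrd2, on 287 to 446 fragments, is the member that depth limits most.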
